A study of Mus musculus with 6 samples.

Results

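Interferon-stimulated genes were examined in bulk RNA-seq of the 3 lobes of the mouse prostate, the anterior (AP), dorsolateral (DLP) and ventral prostate (VP). They comprise 47 genes, taken by symbol from a fixed list, of the 24908 genes listed. The 47 genes were divided into 41 genes best known as responders to type I interferon and 6 guanylate-binding protein (GBP) and immunity-related GTPase (IRG) genes, which are best known as responders to type II interferon. Several of the 41, such as Irf1, Irf9 and Parp9, respond to both.

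The study asked what MYC does to transcription in the prostate. Each lobe gave 1 library from 1 wild-type (WT) mouse and 1 Hi-MYC (MYC) mouse, 6 libraries in all. The mice were FVB males aged 12 weeks, and both had been fed a purified diet. The MYC mouse was heterozygous for human c-MYC under the ARR2Pb promoter, an androgen-regulated promoter active in the prostate epithelium, and the WT mouse lacked the transgene. RNA came from lobes dissociated into cell suspensions, so that it held transcripts of epithelium, stroma and leukocytes alike. A difference between genotypes, between mice and between dissociations cannot be told apart here, and no test over samples could be made.

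Type I interferons signal through a receptor present on most cells, and a complex that includes the STAT2 and IRF9 proteins then binds the interferon-stimulated response element (ISRE) near its target genes. Interferon gamma, the type II interferon made mainly by T and NK cells, acts through the gamma-activated site (GAS), and part of its targets are induced later through IRF1. The induced proteins detect foreign RNA and DNA, block viral replication and also limit the response itself.

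Levels are in FPKM, that is, fragments scaled to transcript length and to the mapped reads of the library, and are therefore given per length. The log2 ratio is the log2 of FPKM plus 1 in MYC less that in WT, which understates the change of low genes. A gene was called higher or lower when this ratio passed 2-fold. The genes compared were the 12361 whose level averaged 1 FPKM or more across the libraries. All 47 interferon-stimulated genes were among them, although Mx1, Oas2, Oas3, Usp18 and Dhx58 had a WT mean under 1 FPKM and passed through the MYC libraries. Depth, recovered from the steps in low FPKM values, was 25.4 to 50.2 M reads, lowest in WT AP. Summed FPKM was 374085 to 483143. The Myc row had 230.004, 201 and 226 FPKM in WT AP, DLP and VP and 231, 586 and 1696 FPKM in MYC. The library labelled MYC AP thus held no more Myc than WT AP, the human transgene has no row of its own, and the genotype of that library rests on its label in every AP ratio given here. The luminal keratin transcripts Krt8 and Krt18 were at 388 to 1611 FPKM in every library, and highest in VP of both genotypes. The MYC AP library also held seminal vesicle transcripts, whose list summed to 522 FPKM, against 0.0966 FPKM in WT AP. In DLP the list summed to 9.17 FPKM in MYC and 0.105 FPKM in WT.

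The promoter windows of the genes, 250 bases before to 50 bases after each transcription start, are shown first for a few members, because letters like those that interferon-activated factors bind occur in them. A match is a description of the sequence, not a binding site shown by these data. Windows of 36 of the 47 genes were found in RefSeq (GRCm38.p6). The ISRE was searched as GAAA, any 2 bases and GAAA, and the GAS as TTC, any 3 bases and GAA, both on either strand. Capitals mark the ISRE matches in the first 5 sequences and the GAS match in the sixth. Each sequence runs 5′ to 3′ on the strand of its gene, so that an ISRE match on the other strand reads TTTC, 2 bases and TTTC.
Ifit1: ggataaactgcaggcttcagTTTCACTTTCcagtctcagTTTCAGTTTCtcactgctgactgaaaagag
Isg15: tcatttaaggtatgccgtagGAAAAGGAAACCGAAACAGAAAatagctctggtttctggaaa
Oas1a: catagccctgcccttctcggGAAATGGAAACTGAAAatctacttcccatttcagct
Rsad2: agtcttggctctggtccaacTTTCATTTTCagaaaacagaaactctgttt
Gbp2: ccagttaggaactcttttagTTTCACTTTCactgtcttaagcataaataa
Irf1: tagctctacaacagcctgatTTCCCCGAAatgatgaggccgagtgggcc

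The stretches lie at chr19:34640765-34640833 on the plus strand (Ifit1), chr4:156200855-156200916 on the minus strand (Isg15), chr5:120907510-120907565 on the minus strand (Oas1a), chr12:26456543-26456592 on the minus strand (Rsad2), chr3:142620584-142620633 on the plus strand (Gbp2) and chr11:53769904-53769952 on the plus strand (Irf1). The matches begin within the 120 bases before the transcription start. Ifit1 holds 2 separate ISRE matches, Isg15 3 overlapping ones and Oas1a 2 overlapping ones. An ISRE match was present in 19 of the 36 genes (52.8%), against 3.99% of the 27025 genes with such a window in the reference. A GAS match was present in 10 of the 36 (27.8%), against 9.55% of all. In 2 places in the windows of the members an ISRE and a GAS match overlapped. Of the GBP and IRG genes with a window, 5 of 5 held an ISRE match, and 14 of the 31 type I responders with a window did.

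In MYC, interferon-stimulated transcripts were more often higher than lower in all 3 lobes, most widely in DLP and VP and least in AP. In AP, 10 of the 47 genes were at least 2-fold higher, against 2.05% of all genes compared. In DLP 32 of 47 were higher (6.46% of all genes) and in VP 27 of 47 (6.88%). None was at least 2-fold lower in any lobe, where 0.599%, 3.39% and 5.95% of all genes were lower in AP, DLP and VP. The 47 genes had median log2 ratios of 0.38, 1.23 and 1.13 in the 3 lobes in that order, and all genes compared had medians of 0.13, 0.03 and 0.04. A log2 ratio above 0 was found for 43, 47 and 44 of the 47 genes, against 66.4%, 53.5% and 53.2% of all genes. Among the 42 members whose WT mean alone reached 1 FPKM, 7, 27 and 24 were higher in AP, DLP and VP, against 1.53%, 4.61% and 5.76% of all genes chosen in that way. With libraries scaled by size factors, 6 members were higher in AP.

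Marker genes of other cell types were read beside these counts, since in bulk RNA fewer cells of a type and less RNA per cell cannot be told apart. Of 26 leukocyte marker genes, 18 reached 1 FPKM, and of these 0 were at least 2-fold higher in AP of the MYC mouse, 18 in its DLP and 11 in its VP. The shares of all genes were 2.05%, 6.46% and 6.88%. S100a9 was among the 18 only through MYC DLP, where it had 16.6 FPKM, against 0, 0.402 and 0.0639 FPKM in WT AP, DLP and VP. The summed level of the 26 was 275, 139 and 71.1 FPKM in WT AP, DLP and VP and 274, 619 and 363 FPKM in MYC. Ptprc, the pan-leukocyte antigen CD45, had 4.59, 3.18 and 1.91 FPKM in WT and 4.62, 11.4 and 4.72 FPKM in MYC. The B cell marker Ms4a1 and the neutrophil markers S100a9 and Ly6g were among those listed at 0 in at least 1 library. Most leukocyte markers thus moved with the interferon-stimulated genes in DLP and VP, and their part in these differences was not tested. From WT VP to MYC VP the macrophage markers went from 43.8 to 267 FPKM in sum and the T and NK markers from 12.2 to 32.7 FPKM. The B markers went from 0.556 to 0.295 FPKM there and the neutrophil markers from 0.390 to 0.263 FPKM. In AP, where 10 interferon-stimulated genes were higher, the marker lists also went different ways. The macrophage markers summed to 173 FPKM in WT AP and 156 FPKM in MYC AP, and the T and NK markers to 14.1 and 17.7 FPKM. The counting interval of the AP ratio lay above 1 for 5 of the 26, Cd52 (1.14 to 1.45), Cd3e (1.18 to 1.92), Nkg7 (1.44 to 3.83), Cd8a (2.17 to 22.7) and S100a9, which was listed at 0 in WT AP. It lay below 1 for another 5, Laptm5, Cd68, Csf1r, C1qa and Itgax. Ly6d, counted apart in a plasmacytoid dendritic list and also made by epithelial cells, went from 13.5 (WT) to 32.0 FPKM (MYC) in AP. Bst2, also on that list, is itself among the 47 genes. Siglech, of the same list and under 1 FPKM throughout, stood below its WT level in every MYC lobe. Its levels went from 0.780 to 0.512 FPKM in AP, 0.707 to 0.232 in DLP and 0.121 to 0.0365 in VP. The counting interval of the Siglech ratio lay below 1 in DLP (0.164 to 0.647) and held 1 in AP and VP. The part of these cells in the AP ratios was not tested either.

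**Figure D1:**
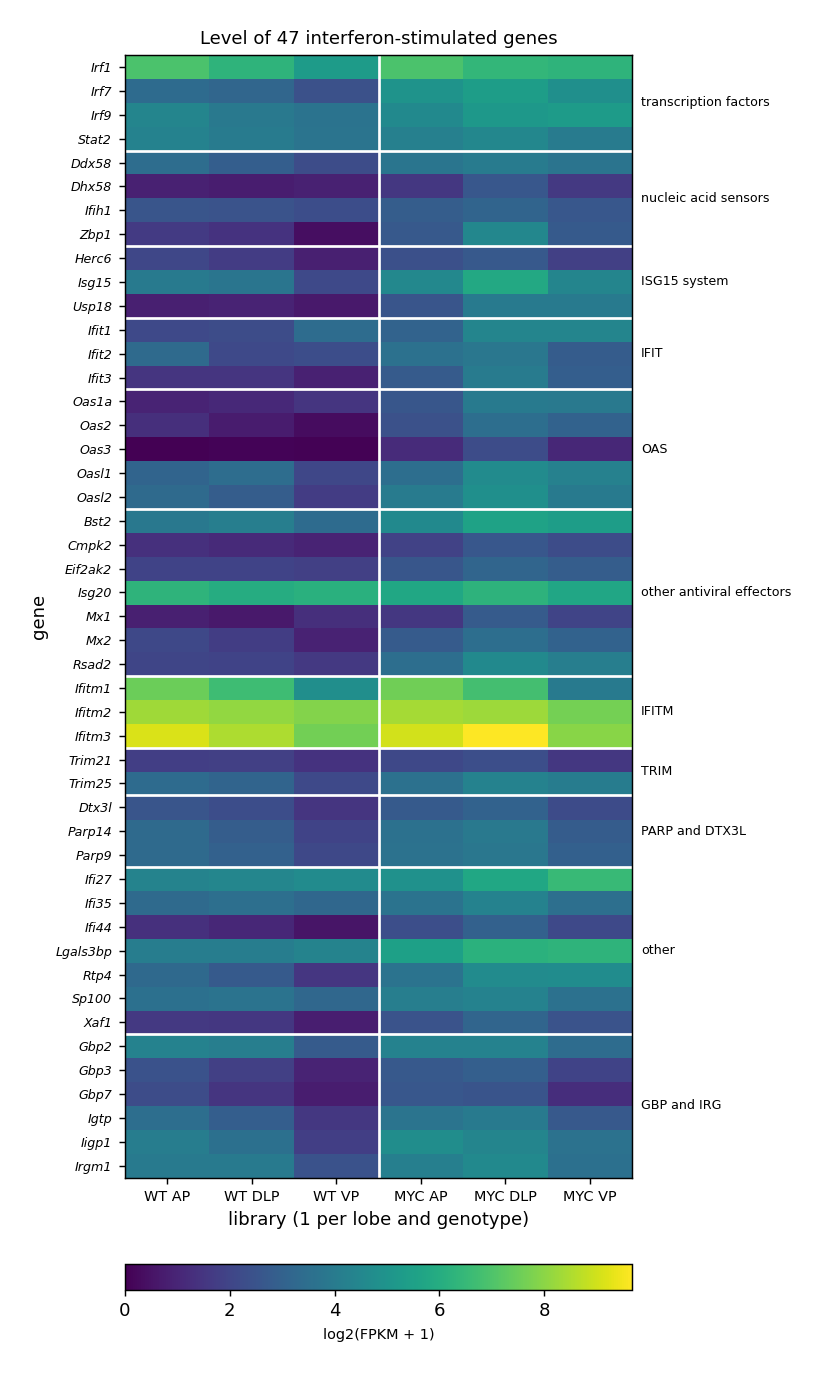
Level of the 47 interferon-stimulated genes (rows, grouped by role) in the 6 libraries (columns), as log2 of FPKM plus 1, with 1 library per column. Ifitm2 and Ifitm3 have the highest levels in every library, and Usp18, Oas1a, Oas2 and Oas3 are low in WT and higher in MYC.

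A total of 10 members were higher in all 3 lobes, Ifit3, Ifi44, Oas1a, Oas2, Oas3, Rsad2, Usp18, Irf7, Zbp1 and Lgals3bp, against 0.413% of all genes. Of these, Oas2, Oas3 and Usp18 passed the filter through the MYC libraries, and with the filter on the WT mean the count was 7 of 42, against 0.175%. Both DLP and VP, with or without AP, were higher for 25 members (2.82% of all genes). Ifit2, Mx1, Dhx58, Ifitm3, Gbp3, Gbp7 and Parp14 passed 2-fold in DLP and not in VP (3.64% of all genes), and Irgm1 and Iigp1 in VP and not in DLP (4.05%), a share near that of all genes. The remaining 13 members passed in no lobe, as did 88.6% of all genes. The pseudocount kept some members under the threshold whose ratio of FPKM alone was at least 2. They were Ifit1, Mx1, Dhx58 and Xaf1 in AP, Herc6 in DLP, and Mx1, Dhx58, Gbp3, Parp9, Parp14, Dtx3l and Herc6 in VP.

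The regulators of ISG15 conjugation are given first. Usp18, the protease that removes ISG15 from proteins and dampens the type I receptor, had 0.825, 0.934 and 0.578 FPKM in WT AP, DLP and VP and 4.92, 14.3 and 14.8 FPKM in MYC. Each MYC library lay above every WT library. Its log2 ratio was the largest of all members in AP (1.70) and in VP (3.32), and the second in DLP (2.99). The VP ratio of FPKM was 25.6, with a 95% counting interval of 19.0 to 35.3. Isg15, the ubiquitin-like modifier that Usp18 takes off, had 14.6, 12.6 and 3.41 FPKM in WT and 22.2, 56.4 and 20.2 FPKM in MYC. Its log2 ratios were 0.57, 2.08 and 2.27 in AP, DLP and VP. WT VP was the lowest library and MYC DLP the highest. Herc6, the mouse ligase that attaches ISG15, had log2 ratios of 0.30, 0.98 and 0.99, under the threshold with the pseudocount. Its ratios of FPKM alone were 2.39 (2.09 to 2.76) in DLP and 3.22 (2.60 to 4.01) in VP.

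The transcription factors differed among themselves. Irf7, the factor that amplifies interferon production, had 9.38, 8.18 and 4.32 FPKM in WT and 30.5, 41.2 and 27.1 FPKM in MYC, with log2 ratios of 1.602, 2.2004 and 2.40. Irf9, the DNA-binding subunit of the type I complex, was under 2-fold in AP (0.20) and higher in DLP (1.26) and VP (1.65). Its partner Stat2 had 18.5, 15.4 and 12.3 FPKM in WT and 17.4, 21.4 and 15.4 FPKM in MYC. Stat2 reached 2-fold in no lobe (-0.08, 0.45 and 0.30). Irf1, a mediator of the interferon gamma response, had 122, 76.6 and 39.0 FPKM in WT and 122, 83.6 and 77.2 FPKM in MYC. Irf1 was therefore at nearly the same level in AP and DLP of both genotypes, and its VP log2 ratio of 0.97 lay just under the threshold.

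The OAS enzymes, which make the oligoadenylate that activates RNase L, were the only role group in which every member was higher in both DLP and VP. Of these, Oas2 and Oas3 passed the filter through the MYC libraries, whereas Oas1a, Oasl1 and Oasl2 had a WT mean of at least 1 FPKM. Oas1a had 0.965, 1.17 and 1.83 FPKM in WT AP, DLP and VP and 4.97, 14.4 and 14.1 FPKM in MYC, with log2 ratios of 1.602, 2.82 and 2.41. Oas2 had 1.496, 0.689 and 0.242 FPKM in WT and 4.23, 10.4 and 7.17 FPKM in MYC, with log2 ratios of 1.07, 2.75 and 2.72. The VP ratio of Oas2 FPKM was 29.6, with a counting interval of 20.3 to 43.6. Oas3 rested on 1, 6 and 3 estimated reads in the WT libraries, so that its ratios are poorly known. They were 73.4 (13.7 to 3077) in AP, 66.4 (31.9 to 193) in DLP and 41.3 (14.6 to 215) in VP. Oasl1 and Oasl2, OAS-like proteins, had log2 ratios of 0.38 and 0.71 in AP, 1.22 and 1.93 in DLP, and 2.21 and 2.22 in VP.

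Among antiviral effectors, Rsad2 (viperin), which makes a chain-terminating nucleotide, had 3.11, 2.83 and 2.08 FPKM in WT and 10.2, 22.9 and 16.8 FPKM in MYC. Its log2 ratios were 1.44, 2.64 and 2.53. Cmpk2, a nucleotide kinase whose gene lies beside Rsad2, had smaller ones of 0.58, 1.45 and 1.27. Mx1 and Mx2 are dynamin-like GTPases that block viruses. Mx1 was higher in DLP (2.12) and had 0.71 in VP, where its ratio of FPKM alone was 2.08 (1.67 to 2.59). Mx2 was higher in both, by 1.72 and 2.12. Bst2 (tetherin), which holds budding virus at the membrane, had log2 ratios of 0.72, 1.46 and 2.02. Eif2ak2 (PKR), which halts translation when it binds double-stranded RNA, had 0.66, 1.23 and 1.05. Isg20, an RNA-degrading nuclease, had 78.0, 63.3 and 69.0 FPKM in WT and 53.2, 75.5 and 52.3 FPKM in MYC. Its log2 ratios were -0.54, 0.25 and -0.39, and it passed 2-fold in no lobe.

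The IFIT proteins bind viral RNA. All 3 IFIT genes were higher in DLP, with log2 ratios of 2.15 (Ifit1), 1.69 (Ifit2) and 2.53 (Ifit3). In VP, Ifit1 (1.005) and Ifit3 (1.98) were higher and Ifit2 had 0.54. Ifit3 alone passed in AP (1.29), where Ifit1 had 0.92.

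Nucleic acid sensors differed among themselves. Zbp1, a sensor of Z-form nucleic acids that can start necroptosis, had 2.17, 1.64 and 0.279 FPKM in WT and 5.56, 21.5 and 5.61 FPKM in MYC. MYC DLP was thus well above both other MYC lobes, and its log2 ratio of 3.09 was the largest of all members in DLP. The DLP ratio of FPKM was 13.1 (11.1 to 15.8). Ddx58 (RIG-I) had log2 ratios of 0.28, 1.14 and 1.46, and Dhx58 (LGP2), its regulator, 0.70, 1.88 and 0.70. Ifih1 (MDA5) reached 2-fold in no lobe (0.29, 0.66 and 0.37).

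Large ratios were also found outside these classes. Rtp4, a chaperone of receptor trafficking, had 8.84, 5.69 and 1.90 FPKM in WT and 11.8, 24.5 and 25.1 FPKM in MYC. It was under 2-fold in AP (0.38) and had the second largest log2 ratio in VP (3.17), a ratio of FPKM of 13.2 (11.0 to 16.0). Lgals3bp, a secreted galectin-binding glycoprotein, had 16.0, 16.1 and 19.1 FPKM in WT and 44.6, 70.7 and 78.5 FPKM in MYC. Its log2 ratios were 1.42, 2.07 and 1.98, and its level in WT hardly varied between lobes. Ifi44, Ifi27 and Xaf1 were higher in both DLP and VP, and Ifi35 and Sp100 in no lobe.

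The IFITM genes encode membrane proteins that hinder viral entry, and Ifitm2 and Ifitm3 had the highest levels of the list in every library. Ifitm3 had 566, 357 and 197 FPKM in WT and 512, 819.5 and 245 FPKM in MYC, so that MYC DLP stood above the other 5 libraries. Ifitm2 had 311, 275 and 238 FPKM in WT and 334, 304 and 200.04 FPKM in MYC. Ifitm1 had 181, 102 and 26.2 FPKM in WT and 189, 108 and 14.7 FPKM in MYC, and was low in VP of both genotypes. Ifitm3 had log2 ratios of -0.14, 1.20 and 0.31, and passed 2-fold in DLP. Ifitm2 (0.10, 0.14 and -0.25) and Ifitm1 (0.06, 0.08 and -0.79) passed 2-fold in no lobe. The VP value of Ifitm1 passed 2-fold downwards, at -1.01, when libraries were scaled to equal sums of FPKM. The sign of Ifitm1 and Ifitm2 in AP and DLP, of Ifitm2 in VP and of Ifitm3 in AP changed under at least 1 other scaling, as did that of Irf1 in AP and DLP and of Stat2 in AP.

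Trim25, a ubiquitin ligase that activates RIG-I, had log2 ratios of 0.23, 1.18 and 1.93. Trim21, an intracellular antibody receptor, had 2.49, 2.54 and 1.65 FPKM in WT and 3.26, 4.00 and 1.99 FPKM in MYC. Its VP log2 ratio of 0.17 was the fourth smallest of the list. Parp9 and Dtx3l, which act together as a ubiquitin ligase, passed the log2 threshold in no lobe, although their VP ratios of FPKM alone were 2.08 and 2.03. Their neighbour Parp14 passed in DLP (1.06) and had 0.87 in VP, a ratio of FPKM of 2.12.

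**Figure D2:**
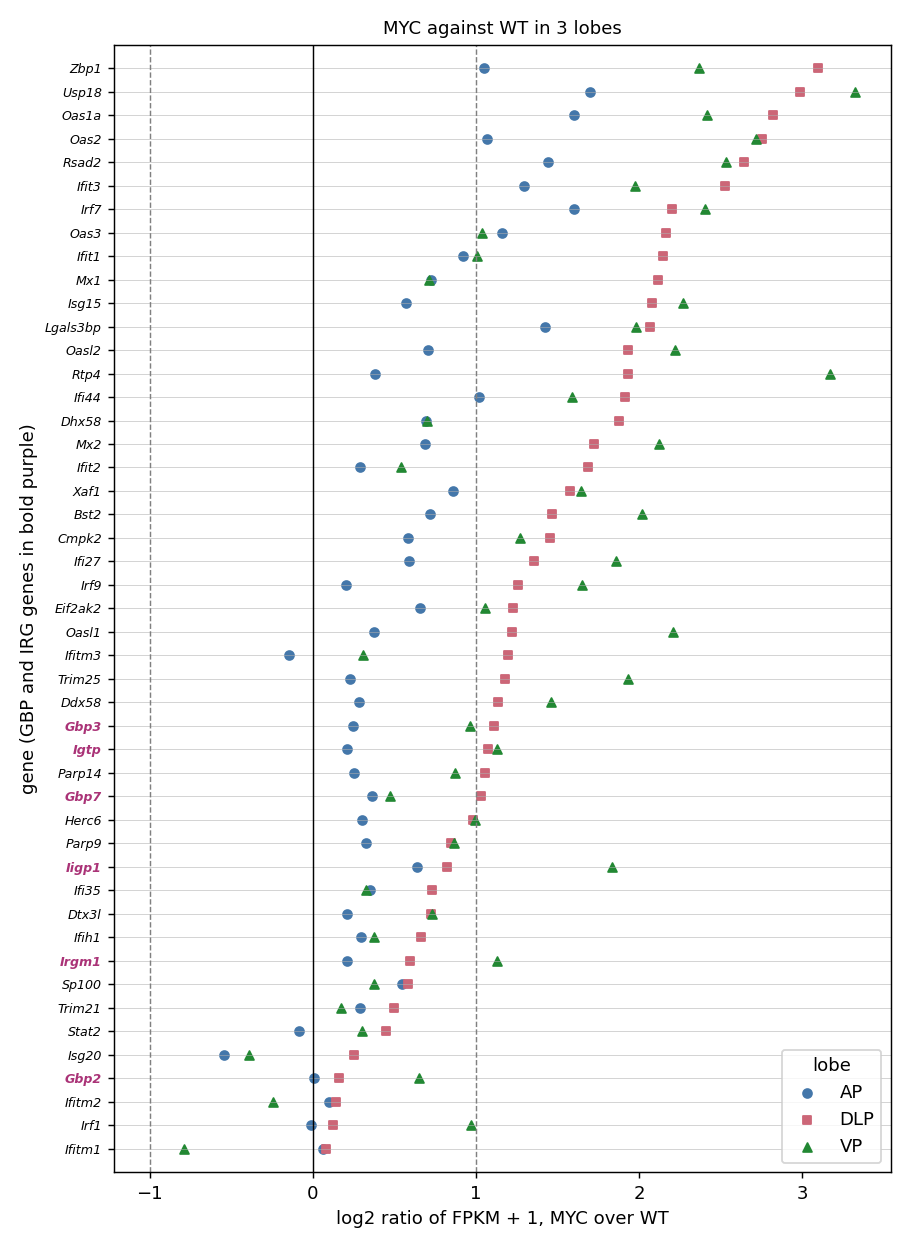
Log2 ratio of MYC to WT (FPKM plus 1) of each of the 47 genes in AP, DLP and VP, 1 point per gene and lobe, with dashed lines at 2-fold and the GBP and IRG genes in bold purple. Points of DLP and VP spread to the right of those of AP, up to 3.32 for Usp18 in VP, and no point lies beyond 2-fold on the left.

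The type I and type II responders were compared next. The GBP proteins and the IRG proteins attack vacuoles that hold pathogens. In AP, 10 of the 41 type I responders and 0 of the 6 GBP and IRG genes were at least 2-fold higher. In DLP the counts were 29 of 41 and 3 of 6, and in VP 24 of 41 and 3 of 6. The median log2 ratio was 0.57 for the type I responders and 0.23 for the GBP and IRG genes in AP, 1.45 and 0.93 in DLP, and 1.27 and 1.05 in VP. The medians of these 2 sets lay apart by 0.34, 0.53 and 0.22. All 5 members that passed the filter through the MYC libraries are type I responders, and with the filter on the WT mean the medians lay apart by 0.15, 0.32 and 0.32. The 13 other GBP, IRG and interferon gamma genes described below had medians of 0.70, 1.21 and 1.01, of which that in AP was above the type I median. With 6 genes on one side and 1 library per group, this order is a description of these libraries.

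Within the GBP and IRG genes, Gbp2 had 18.5, 16.5 and 5.88 FPKM in WT AP, DLP and VP and 18.7, 18.5 and 9.78 FPKM in MYC. It was the only one of the 6 that passed 2-fold in no lobe, and its log2 ratios were 0.01, 0.16 and 0.65. The sign in AP and DLP changed with the scaling. Gbp3 and Gbp7 passed in DLP (1.11 and 1.03) and not in VP (0.97 and 0.47). Igtp (Irgm3), a regulatory IRG protein, had 10.4, 6.52 and 1.99 FPKM in WT and 12.2, 14.8 and 5.53 FPKM in MYC, and passed in both DLP (1.07) and VP (1.13). Iigp1 (Irga6), an effector IRG protein, had 16.2, 10.9 and 2.498 FPKM in WT and 25.8, 20.2 and 11.4 FPKM in MYC, and its VP log2 ratio of 1.83 was the largest of the 6.

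In WT, most of the 47 genes were lowest in VP and highest in AP. VP was the lowest WT lobe for 38 of the 47 genes (46.7% of all genes compared) and AP the highest for 32 (32.4%). For 30 genes the order was AP above DLP above VP (28.3%). Between WT VP and WT AP, 23 members were at least 2-fold lower in VP (10.3% of all genes) and 1, Ifit1, was higher (7.89%). Ifit1 had 3.44, 3.77 and 9.64 FPKM in WT AP, DLP and VP. Between VP and DLP, 10 were lower in VP (6.29%) and 1 higher (2.63%). DLP and AP lay close, with 1 member lower in DLP, Ifit2 (1.31%), and 0 higher (3.85%). WT VP was the highest WT lobe for Ifit1, Ifi27, Mx1, Oas1a, Dhx58 and Lgals3bp.

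The median lobe difference in WT was wider for the GBP and IRG genes, of which 6 of 6 were at least 2-fold lower in VP than in AP. Their median log2 difference between VP and AP was -1.50, against -0.74 for the type I responders. Between VP and DLP it was -1.34 against -0.47. The summed levels of all 26 leukocyte markers and of the endothelial markers were also highest in AP and lowest in VP in WT, whereas the T and NK markers summed to 14.1, 17.4 and 12.2 FPKM and were highest in DLP. The median log2 difference of the 18 leukocyte markers between VP and AP was -1.29, and the summed level of 3 endothelial markers was 103, 76.01 and 15.1 FPKM in WT AP, DLP and VP. Pecam1, the endothelial adhesion molecule CD31, had 56.5, 37.4 and 6.25 FPKM. The epithelial markers also differed between WT lobes. The luminal markers summed to 1000, 1084 and 2983 FPKM in WT AP, DLP and VP, and the basal markers to 875, 497 and 194 FPKM. What part these cell types had in the lobe order was not tested.

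In MYC the order of lobes was another. DLP was the highest MYC lobe for 35 of the 47 genes (28.1% of all genes), and AP and VP for 6 each. The 6 genes highest in MYC AP were Irf1, Ifitm1, Ifitm2, Gbp2, Gbp7 and Iigp1. Between MYC DLP and MYC AP, 13 members were at least 2-fold higher in DLP (4.54%) and 0 lower (3.49%). Between MYC VP and MYC AP, 5 were higher in VP (8.98%) and 5 lower (16.1%). Between MYC VP and MYC DLP, 0 were higher in VP (3.54%) and 13 lower (14%). The median log2 difference between VP and AP was -0.03 for the type I responders in MYC, against -0.74 in WT. The type I responders went both ways in MYC, with 20 above and 21 below 0 and a range of -3.60 to 1.63. For the GBP and IRG genes it was -0.94 in MYC and -1.50 in WT.

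**Figure D3:**
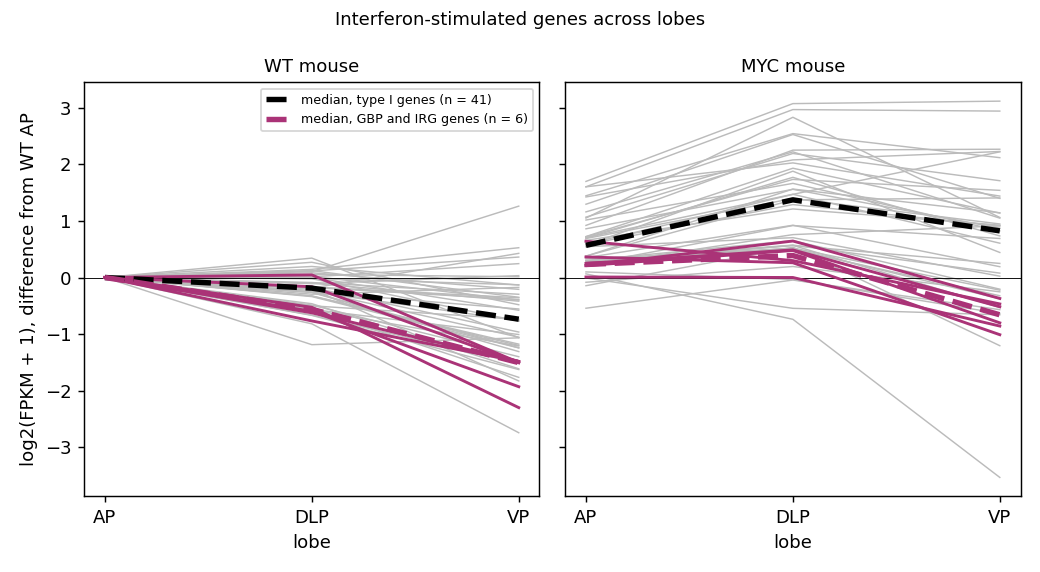
Level of each of the 47 genes relative to WT AP, as the difference in log2 of FPKM plus 1, across the lobes in WT and in MYC, with the medians of the type I responders and of the GBP and IRG genes as dashed lines. In WT both medians are lowest in VP, at -0.74 and -1.50, and in MYC both are highest in DLP.

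The size of the MYC difference by lobe was then set gene by gene. The log2 ratio was larger in DLP than in AP for 47 of 47 genes (43.2% of all genes), with a median difference of 0.84. In 17 genes the DLP ratio exceeded that of AP by at least 2-fold (5.04%). VP exceeded AP for 40 of 47 (45.8%), with a median difference of 0.69, and by at least 2-fold for 15 (5.68%). DLP and VP did not stand in a fixed order. VP was larger for 21 of 47 genes (51.7%), by at least 2-fold for 2 (2.52%). DLP was larger by at least 2-fold for 5 (5.5%). The median difference of VP less DLP was -0.11, and it turned to 0.11 with a pseudocount of 0.1 FPKM. Usp18, Rtp4, Trim25, Isg15 and the IRG genes Irgm1 and Iigp1 were among those with the larger ratio in VP, and Zbp1, Mx1 and Dhx58 among those with the larger ratio in DLP. The rank order of the ratios over the 47 genes was alike between lobes. Spearman's rho across genes was 0.85 for DLP and AP, 0.76 for VP and DLP and 0.68 for VP and AP, against 0.28, 0.59 and 0.14 for all genes. The points are genes of the same 6 libraries and are not independent.

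Counting error was widest for low genes, as for Oas3 above and for Dhx58 in AP (1.48 to 4.02). For the 46 members with a transcript length, exact 95% counting intervals of the ratio lay above 1 for 40 genes in AP, 45 in DLP and 42 in VP, whereas 43.4%, 39.3% and 41.9% of all genes had such intervals. Intervals below 1 were found for Isg20, Stat2 and Ifitm3 in AP, for 0 genes in DLP, and for Isg20, Ifitm1 and Ifitm2 in VP. These intervals cover the counting of reads in 2 libraries and not the spread between mice.

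The position of the genes and their promoter letters were set beside the ratios. Of the 47 genes, 21 lie in 8 clusters with gaps of at most 200 kb. Oas2, Oas3 and Oas1a lie at chr5:120730333-120907544, and Ifit2, Ifit3 and Ifit1 at chr19:34550550-34650009. Ifitm2, Ifitm1 and Ifitm3 lie at chr7:140954837-141010744, and Gbp7, Gbp3 and Gbp2 at chr3:142530336-142638008. Neighbours had unlike values in the Ifit, Mx and Ifitm clusters, as given above for each gene. Close copies can share reads, so that the split between them is uncertain. Genes with and without an ISRE match in the window showed no single order. The median log2 ratios were 0.29 with (19 genes) and 0.35 without (17 genes) in AP, 1.14 and 1.22 in DLP, and 1.04 and 1.27 in VP. At least 2-fold higher were 4 of 19 with and 3 of 17 without in AP, 13 and 10 in DLP, and 11 and 9 in VP. Irf1, whose GAS match is shown above, and Gbp2, with an ISRE match, were among the 5 smallest log2 ratios in AP and in DLP and not in VP.

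The other genes of the pathway were followed from ligand to target. Of 21 interferon genes, only Ifnb1 reached a mean of 1 FPKM, with 0.972, 2.63 and 0.9997 FPKM in WT AP, DLP and VP and 1.03, 2.35 and 0.734 FPKM in MYC. Of the interferon alpha genes, 13 were listed at 0 in all 6 libraries. Ifng had 0.896, 0.781 and 0.200 FPKM in WT and 0.755, 2.004 and 1.14 FPKM in MYC. The counting interval of the Ifng ratio was 1.70 to 3.92 in DLP and 2.86 to 12.7 in VP, and it held 1 in AP (0.485 to 1.47). Of the type I ligands under 1 FPKM, Ifne was at 0.0926 FPKM in DLP of the WT mouse and at 0.943 FPKM in that of the MYC mouse, with an interval of the ratio of 2.36 to 91.5. Ifnk was listed at 0 in the 3 WT libraries and had 0.375 FPKM in MYC DLP.

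Of 18 receptor and signalling genes, 0 were at least 2-fold higher in MYC in AP and 0 in VP. Socs3, a feedback inhibitor of STAT3 signalling, was lower in VP (-1.36), with 412, 319 and 120.3 FPKM in WT and 287, 175 and 46.2 FPKM in MYC. Among 14 genes of nucleic acid sensing that reached 1 FPKM, Irf5 was higher in DLP (1.45) and lay at 0.996 in VP. Adar and Trex1 were higher in VP (1.11 and 1.16), which is 2 of 14 against 6.88% of all genes, and lay just under the threshold in DLP (0.94 and 0.99). Ikbke was lower in VP (-1.12). The single calls of Irf5, Ikbke and Socs3 are near the 6.46% of all genes higher in DLP and the 5.95% lower in VP.

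Other GBP, IRG and interferon gamma genes, of which 13 reached 1 FPKM, were higher in 2 cases in AP (2.05% of all genes), 10 in DLP (6.46%) and 7 in VP (6.88%). Gm12250, Nlrc5, Cxcl9 and Ido1 had a WT mean under 1 FPKM and passed the filter through the MYC libraries, and of the other 9 genes 1, 6 and 5 were higher, against 1.53%, 4.61% and 5.76% of all genes on that filter. Cxcl10, a chemokine that attracts T cells, had 41.7, 37.0 and 49.6 FPKM in WT and 135, 212 and 533 FPKM in MYC, with log2 ratios of 1.67, 2.49 and 3.40. Ido1, which degrades tryptophan, had 0.301, 0.261 and 0.0774 FPKM in WT and 7.96, 14.0 and 1.33 FPKM in MYC. Both passed 2-fold in all 3 lobes, Ido1 as a gene that entered the comparison through its MYC levels.

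**Figure D4:**
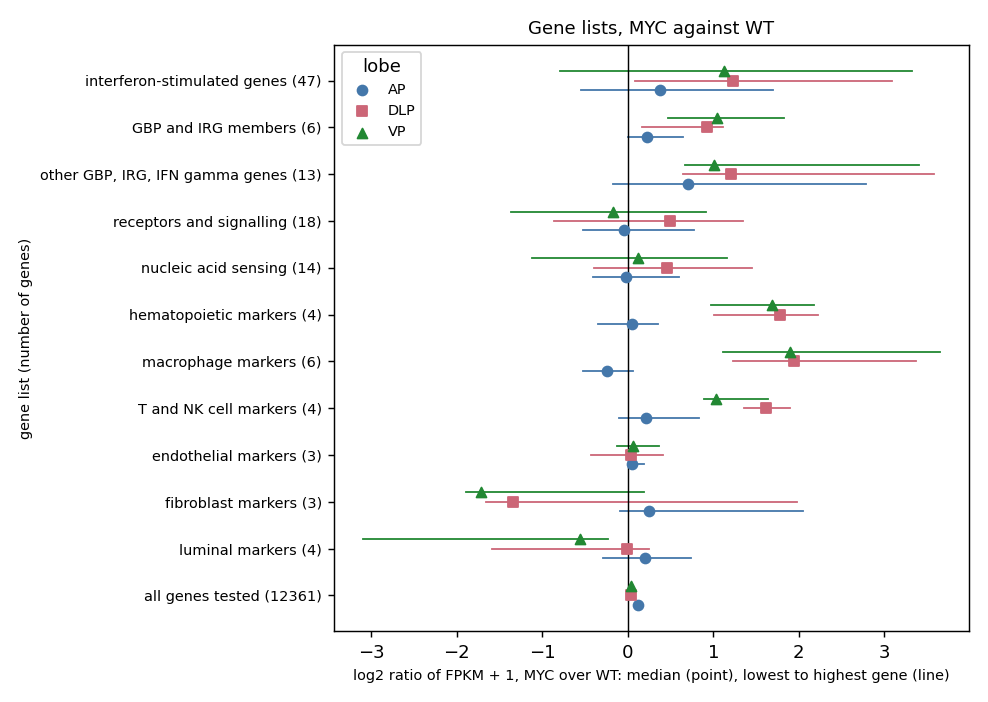
Median (point) and range (line) of the log2 ratio of MYC to WT by lobe. Rows are the 47 genes, their GBP and IRG subset, other lists of the interferon pathway, cell type marker lists and all genes (median only). In AP the medians of the hematopoietic, macrophage and T and NK markers lie at 0.05, -0.24 and 0.21, and that of the 47 genes at 0.38. In DLP these medians are 1.78, 1.94, 1.61 and 1.23.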

How the data were processed

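Poly(A)-selected, stranded RNA-seq libraries were read as single-end reads of the 6 lobe samples. The authors demultiplexed with bcl2fastq 2.18, mapped the reads with STAR 2.7.0f and quantified genes with Cufflinks 2.2.1 within VIPER 2.0, and the FPKM they deposited stand in a single table of all libraries. The submitters' processing notes name mm10, and the gene annotation is not given in the sources used here. The methods term the values read counts and name a count model. The values are not whole numbers, so none was run.

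Genotype and lobe came from the sample titles. The 47 genes and all other lists were chosen with earlier results of these data known. Ratios were log2 of FPKM plus a pseudocount of 1, for the genes that averaged 1 FPKM or more. Since every group is a single library, p-values were not computed, and every difference has no replicate check. The share of all genes past the same threshold is given as background.

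The depth was recovered from steps of low FPKM in genes with a single exon and transcript, using GENCODE M1 lengths, and FPKM were turned into estimated reads. Of the 276 member values, 3 rested on fewer than 10 reads, all of Oas3 in WT. Exact 95% Clopper-Pearson intervals of ratios of reads cover counting error only. Reads without molecular identifiers are not independent molecules.

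In each lobe, the 5 largest and 5 smallest ratios, and the 3 highest WT levels, were given in all 6 libraries, and other members by role. Coordinates and promoters are those of RefSeq GRCm38.p6, matched by symbol. Alternatives were 4 other scalings of the libraries, a pseudocount of 0.1, no filter, a mean of at least 10 FPKM, 1.5-fold and 4-fold thresholds, the removal of families with close copies, and the counting of Irf1, Irf9, Parp9, Parp14 and Dtx3l with the type II responders. Filters without the MYC AP library or on the WT mean were added after seeing the data. Some genes of the other lists are not reported here. The computations were tested on simulated data. Intervals came from scipy 1.17.1, tables from pandas 2.3.3 and numpy 2.4.6, and figures from matplotlib 3.10.9, under Python 3.11.15.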

Additional observations from a re-analysis of the deposited data

Results flagged for a closer look

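The differences below are some of those in which the log2 ratio of a gene, or the median of a marker list, was above 0 in 1 lobe and below 0 in another. Each rests on 1 library per group and was not tested. The list is not complete. Isg20, Stat2, Irf1, Ifitm1 and Ifitm2 also changed sign between lobes. So did the medians of the shorter neutrophil (3.36 in DLP, -0.08 in VP), B cell (1.80 in DLP, -0.32 in VP) and dendritic lists (1.93 in DLP, -0.24 in AP). The log2 ratio of Ifitm3 was 1.34 larger in DLP than in AP, where it was -0.14 and changed its sign under another scaling. The median log2 ratio of the macrophage markers was 2.14 larger in VP and 2.19 larger in DLP than in AP. The fibroblast markers went the other way, with medians that lay apart by -1.96 between VP and AP and by -1.59 between DLP and AP. This holds for the median of the 3 markers, since Col1a1 was above 0 and Dcn below 0 in all 3 lobes. The medians of the smooth muscle markers lay apart by -1.48 and -1.68. Those of the basal markers lay apart by -1.68 between VP and DLP.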

How the results depend on the processing

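No paired analysis was possible because each lobe and genotype holds 1 library and each genotype 1 mouse, whose lobes are not replicates, and for the same reason no replicate could be left out. No called value changed its direction under any alternative. Of the values of single members under alternatives, 650 kept their side of the 2-fold line and 46 crossed it. Of the counts and medians, 214 stayed near the reported value and 50 moved. The difference between the type I and the GBP and IRG medians was 0.15 to 0.41 in AP, 0.32 to 0.78 in DLP and 0.22 to 0.56 in VP. The causes of the moves below were not tested, beyond what fewer genes or another threshold give by construction. With size factors, 6 members were higher in MYC AP, the AP median was 0.24 and the WT median difference between DLP and AP was -0.33. With equal sums of FPKM, 1 member was lower in MYC VP (also without the 20 highest genes, 1), the WT difference between DLP and AP was -0.39, and 2 members were lower in WT DLP than AP. Equal sums moved the VP median of all genes from 0.04 to -0.15. Relative to Krt8 and Krt18, the DLP median was 1.04, and the differences of log2 ratios were 0.44 (VP and AP) and 0.47 (DLP and AP). On that scale WT VP differed from AP by -2.005, with 0 members higher and 41 lower, and from DLP by -1.65, with 0 higher and 39 lower, while the medians of all genes were -1.29 and -1.40. With a pseudocount of 0.1, the WT difference was -1.26 between VP and AP and -0.91 between VP and DLP (2 higher, 21 lower), 3 members were lower in WT DLP than AP, and the differences of log2 ratios were 0.99 (VP and AP) and 0.11 (VP and DLP). With a mean of at least 10 FPKM, 22 members were left, of which 2, 12 and 13 were higher in MYC AP, DLP and VP, 11 were lower in WT VP than AP and 0 in WT DLP than AP, and the difference of log2 ratios between VP and DLP was 0.24. At 4-fold, 0, 12 and 12 members were higher in MYC AP, DLP and VP. In WT at 4-fold, 0 were higher and 2 lower in VP than AP, 0 higher and 0 lower in VP than DLP, and 0 lower in DLP than AP. At 1.5-fold, 20 were higher in MYC AP, 1 was lower in MYC VP, 2 were higher and 24 lower in WT VP than DLP, and 7 were lower in WT DLP than AP. Without families with close copies, 28 members were left, of which 6, 18 and 16 were higher in MYC. Of these, 0 were higher and 10 lower in WT VP than AP, 0 higher and 3 lower in VP than DLP, and 0 lower in DLP than AP. WT AP had the fewest reads, so its low genes are the least precise.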
